A study of Bos taurus with 28 samples.

Results

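Hepatic mRNA of the insulin receptor and of the kinases and adaptors downstream of it was examined in the 28 deposited arrays for 9 genes: INSR, IRS1, IRS2, PIK3R1, AKT1, AKT2, MTOR, RPTOR and DEPTOR. The members were taken as every probe set that the array's annotation assigns to exactly 1 of these symbols. This gave 13 probe sets of 6 genes, out of 13292 probe sets and 9155 genes with a single symbol on the array. IRS1, IRS2 and MTOR had no probe set under this rule and were not analysed here. Of the 13 probe sets, 11 (of 5 genes) were among the probe sets tested, and the remaining INSR probe set and the only PIK3R1 probe set had too low a maximum signal to be tested.

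The samples were liver biopsies of ovariectomized, dry Holstein cows, taken after 14 days. Every cow, controls included, had been ovariectomized, so that the groups differ by the hormones given back: no hormone (CO), estradiol-17β from an ear implant (E2T), progesterone from intravaginal inserts (P4T), or implant and inserts together (E2P4T), with 7 arrays each. The route of progesterone is that of the study's methods and of the treatment protocol, whereas the source label of P4T calls it intradermal. Cows were reused across periods in a replicated Latin square, but the labels give neither cow nor period, so the spread below includes differences between cows, and the titles call the arrays of a group biological replication. All values are log2 of the deposited array signals, on which a difference of 1 is a doubling, and 7 arrays per group limit the precision.

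The insulin receptor is a tyrosine kinase of the cell membrane that phosphorylates adaptors of the IRS family, which recruit phosphoinositide 3-kinase. The lipid product of that kinase brings AKT to the membrane, and active AKT restrains gluconeogenic gene expression and relieves inhibition of the mTOR kinase. MTOR works in complexes, with RPTOR (raptor) as the substrate scaffold of mTORC1 and DEPTOR as an inhibitory subunit, and in liver this pathway couples insulin and amino acid supply to protein synthesis, lipogenesis and autophagy.

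Some arrays stood apart before any result was drawn. The mean log2 signal of the 18 control probe sets for transcripts added to the sample (hybridisation controls) was 17.49 on the P4T array number 4 and 18.44 on the E2P4T array number 5, and lay between 13.18 and 16.45 on the other 26 arrays. The highest of these 26 were CO number 3 (16.45) and E2T number 3 (15.64). The library labelled E2P4T number 5 also went against its tissue label. The mean log2 signal of 19 hepatocyte markers was 10.01 on it and from 14.86 to 15.85 on the other 27 arrays, and 17 of the 19 markers were lower than on any other array (APOB 5.00 against 14.93 to 16.11), the exceptions being HP and TAT. In place of these, 5 of 6 kidney epithelium markers were higher than on any other array (CDH16 14.42 against 3.95 to 8.75), with a list mean of 11.07 against 4.24 to 7.96, the exception being SLC12A1. On the same array 3 of 4 cholangiocyte markers were above and 4 of 5 Kupffer cell and leukocyte markers below those of all other arrays. The study left out an array of P4T and an array of E2P4T, which the labels do not name. It then analysed 7 arrays each of P4T and E2P4T, and the deposit also holds 7 of each. For CO and E2T the study analysed more arrays than the deposit holds. The arrays left out may thus be absent from the deposit, and whether they are P4T number 4 and E2P4T number 5 is not known here. Results that include P4T or E2P4T are given for all 28 arrays, and also without these 2 where that moved a value by over 1.5 times or changed a call. In whole biopsies, fewer cells of a type and less RNA per cell cannot be told apart.

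No member differed between groups once p-values were adjusted over all tested probe sets. With limma and Benjamini-Hochberg adjustment, 0 of the 11 member probe sets and 0 of all tested probe sets (0%) had an adjusted p under 0.05 in the F test over the treatments, in the 6 contrasts between groups, and in the main effects of estradiol and progesterone and their interaction. The counts remained 0 without the 2 arrays. The values below are therefore those of unadjusted p-values, and each count of members stands beside the share of all tested probe sets that passed the same threshold. On the scale as deposited, the median difference of all tested probe sets from CO was -0.10 (log2) for E2T, -0.03 for P4T and -0.02 for E2P4T, and centring each array on its median moved these to 0.17, 0.09 and 0.04.

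At an unadjusted p under 0.05, 2 of the 11 member probe sets passed the F test (2.11% of all tested), 1 of INSR and that of DEPTOR. Against CO, 3 were lower in E2T (3.96% of all tested) and 0 higher (1.46%). Of the 3, AKT2 Bt.27965.2.S1_a_at was tested only through its signal on E2P4T number 5. Another, INSR Bt.28461.1.A1_a_at, was kept only through arrays of CO and P4T, so its lower calls are not independent of the filter. In P4T 0 were lower (1.82%) and 1 was higher (0.946%), and in E2P4T 1 was lower (2.72%) and 0 were higher (2.18%). Among all tested probe sets, 740 were lower and 273 higher in E2T under the deposited scaling, 374 lower and 390 higher after quantile normalization, and 345 lower and 708 higher after median centring, so that the direction of the whole array in E2T depended on the scaling. Without the 2 arrays, 4 member probe sets passed in E2T (10.2% of all tested), 1 in P4T (8.20%) and 1 in E2P4T (9.51%), so that a single call among 11 was close to the share of all probe sets. The P4T call was then another INSR probe set in the opposite direction, Bt.28461.1.A1_a_at at -1.25, while Bt.28461.1.S1_a_at had an unadjusted p of 0.0947.

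**Figure D1:**
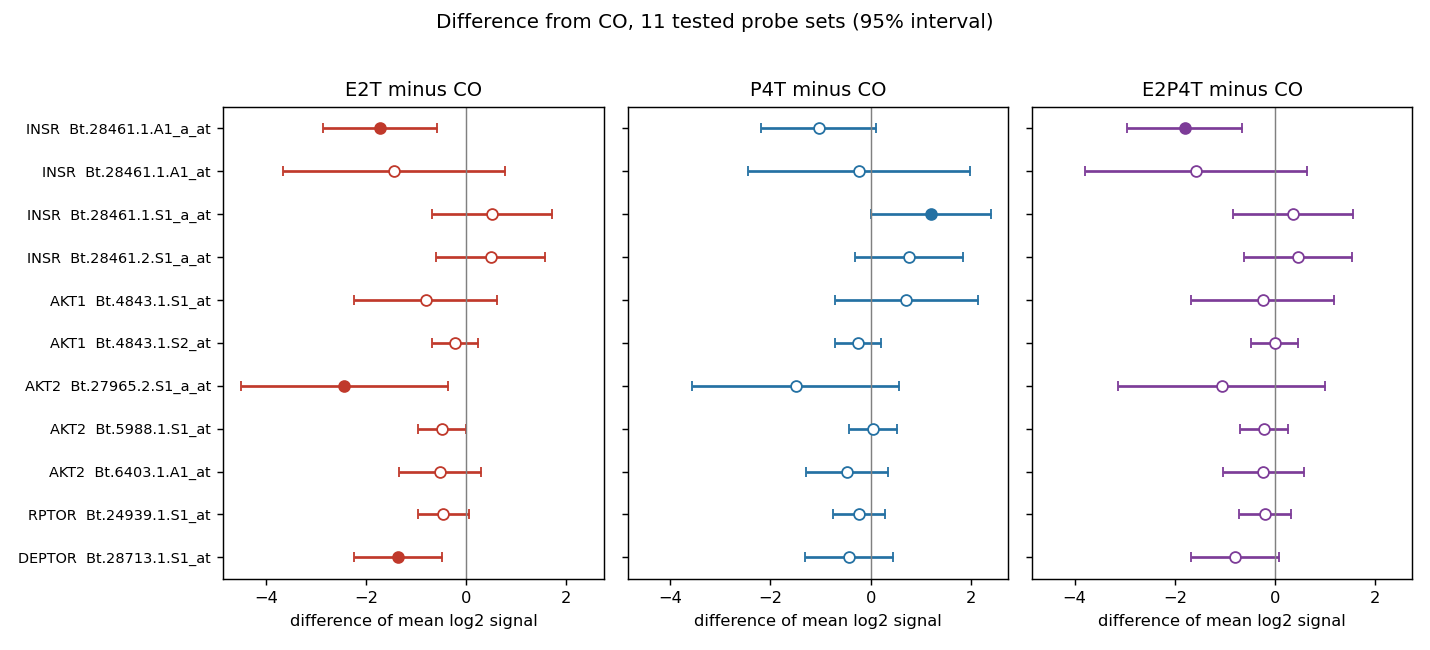
Each point is the difference of the mean log2 signal from CO (x axis) for 1 of the 11 tested probe sets (y axis), with its 95% interval from limma, in E2T, P4T and E2P4T, and filled points have an unadjusted p under 0.05. The filled points are INSR Bt.28461.1.A1_a_at, AKT2 Bt.27965.2.S1_a_at and DEPTOR in E2T, INSR Bt.28461.1.S1_a_at in P4T and INSR Bt.28461.1.A1_a_at in E2P4T, and the INSR probe sets lie on both sides of 0.

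INSR, the receptor itself, was represented by 5 probe sets, which did not move together. The probe set Bt.28461.1.A1_a_at had log2 signals of 7.69 to 9.57 in CO (median 8.09), 4.00 to 7.61 in E2T (median 7.01), 6.06 to 8.50 in P4T (median 7.22) and 3.45 to 7.90 in E2P4T (median 6.81). All 7 E2T arrays lay below the lowest CO array, as did 5 of 7 in P4T and 6 of 7 in E2P4T, and no treated array reached the CO maximum. A complete separation of treated from CO arrays was seen for 0.118% of all tested probe sets in E2T, 0.0214% in P4T and 0.0321% in E2P4T, and among the members only here and only for E2T.

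The difference from CO for this probe set was -1.72 ± 0.56 in E2T (log2, SE), a 3.30-fold lower geometric mean, with an unadjusted p of 0.00443 and a limma adjusted p of 0.873. In E2P4T it was -1.80 ± 0.56, with an unadjusted p of 0.0031 and a limma adjusted p of 0.933. The exact 2-sided permutation test over the 3432 splits of the arrays gave an unadjusted p = 0.00058 for E2T and p = 0.0023 for E2P4T. The E2T value is the lowest this test can give and restates the complete separation above. In P4T the difference was -1.04, with a 95% interval from -2.18 to 0.11, and without the 2 arrays it was -1.25 with an unadjusted p of 0.0355. The lower signal in E2T and E2P4T passed the unadjusted threshold in all 28 fits that left out 1 array, with differences of -1.90 to -1.30 and -2.04 to -1.29. It also passed after quantile normalization (-1.52 and -1.75) and after median centring (-1.45 and -1.74). The signals themselves were low: the probe set was under the median of its array on 20 of 28 arrays, 2 of them CO and all 7 of E2P4T, and its median linear signal went from 273.1 in CO to 129.1 with E2T, 149.5 with P4T and 112.5 with E2P4T. Every E2T and E2P4T signal was under 353.2, the lowest maximum tested. The probe set was kept through CO number 3 (451.5), CO number 7 (758.1) and P4T number 4 (361.4). Its lower calls and its separation from CO are therefore not independent of the filter.

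The INSR probe set of highest mean signal, Bt.28461.2.S1_a_at, had differences of the opposite sign. Its log2 signals were 5.73 to 9.04 in CO (median 7.63), 7.06 to 8.30 in E2T (median 7.95), 7.46 to 8.86 in P4T (median 8.24) and 4.25 to 8.83 in E2P4T (median 8.41). The CO arrays spread more widely than those of E2T and P4T, and no treated array lay above the highest of them. The differences from CO were 0.49 (95% interval -0.60 to 1.57) in E2T, 0.77 (-0.31 to 1.86) in P4T and 0.47 (-0.62 to 1.55) in E2P4T, and none passed the unadjusted threshold. The E2P4T difference was 0.30 without the 2 arrays. A single array decided it: without E2P4T number 2, at 4.25, the E2P4T difference was 1.07 with an unadjusted p of 0.0119.

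The probe set Bt.28461.1.S1_a_at was also higher than CO in each treatment, by 0.52, 1.21 and 0.37. Its log2 signals were 3.09 to 8.55 in CO (median 6.55), 5.48 to 7.26 in E2T (median 6.97), 6.69 to 8.50 in P4T (median 7.66) and 5.36 to 7.26 in E2P4T (median 6.66). All 7 P4T arrays were above the CO mean, yet the CO range enclosed every treated array. The P4T difference had an unadjusted p of 0.0475, but the exact permutation test gave p = 0.153, and the threshold was missed in 18 of the 28 fits that left out 1 array, with a difference of 0.69 without CO number 3 and of 1.03 without P4T number 4.

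The last pair of INSR probe sets was close to the floor of the array. Bt.28461.1.A1_at had differences of -1.44 (95% interval -3.65 to 0.78), -0.24 (-2.46 to 1.98, turning to 0.10 after quantile normalization and -0.93 without the 2 arrays) and -1.57 (-3.78 to 0.65), and was below the array median on 26 of 28 arrays. Bt.28461.1.S1_at, which was not tested, was below it on all 28, with a median of 5.50 in CO and medians of 3.42 for E2T, 3.90 for P4T and 4.66 for E2P4T. Averaged over the 4 tested probe sets, INSR was at -0.54 ± 0.37 relative to CO for E2T, 0.18 ± 0.37 for P4T and -0.63 ± 0.37 for E2P4T (log2, SE), with unadjusted p-values of 0.158, 0.641 and 0.0986. With the 2 arrays left out, the P4T mean turned to -0.08, and the E2P4T mean was -0.75 with an unadjusted p of 0.0275. These means include Bt.28461.1.A1_a_at, which was kept only through CO and P4T arrays.

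**Figure D2:**
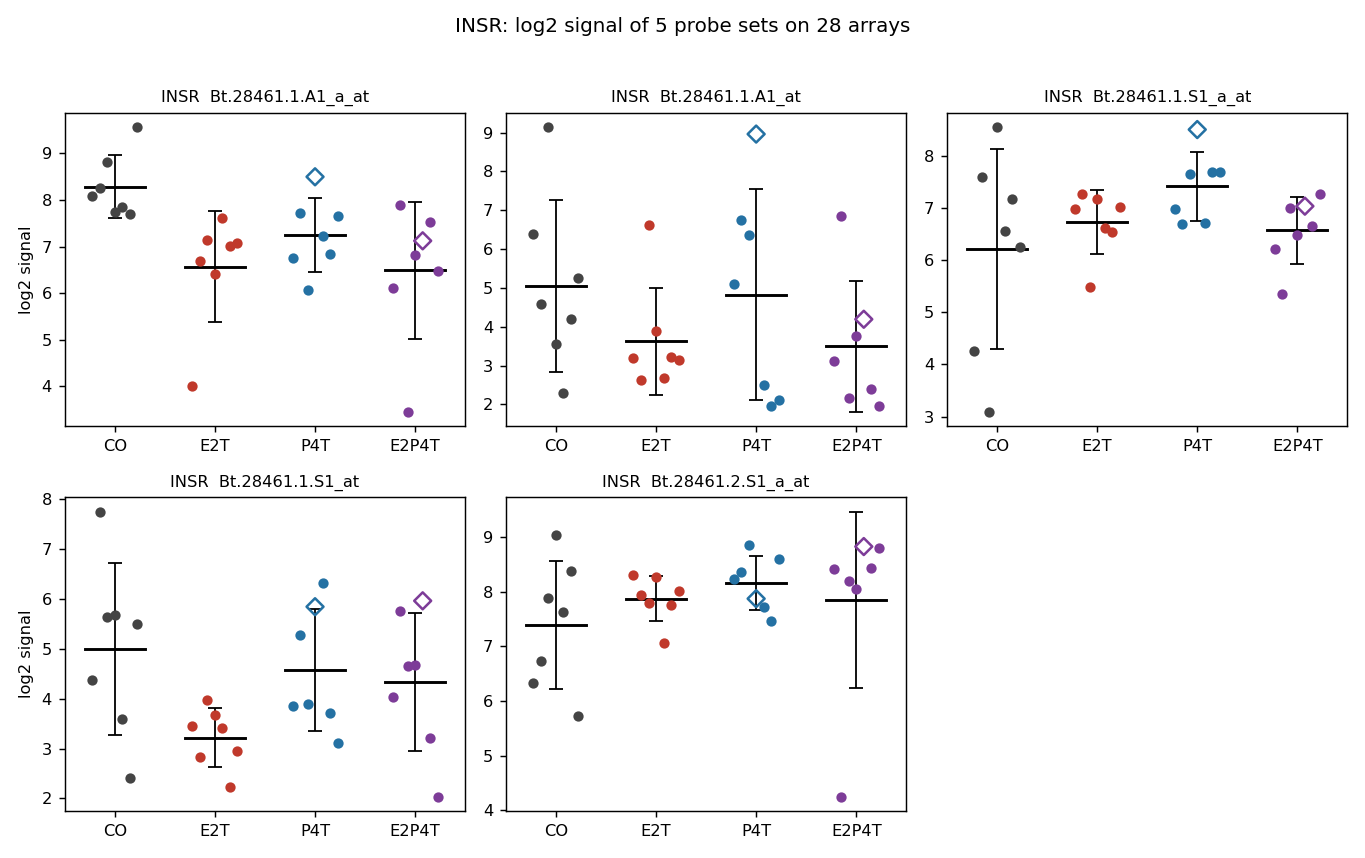
The log2 signal (y axis) of the 5 INSR probe sets on each of the 28 arrays by group (x axis), with the group mean (line) and SD (bar), where open diamonds are P4T number 4 and E2P4T number 5. In Bt.28461.1.A1_a_at the 7 E2T arrays lie between 4.00 and 7.61, under all CO arrays, while in Bt.28461.1.S1_a_at the CO arrays, from 3.09 to 8.55, enclose all treated arrays.

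By their ranks over the arrays, the INSR probe sets formed 2 sets. Bt.28461.1.A1_a_at, Bt.28461.1.A1_at and Bt.28461.1.S1_at correlated with each other (Spearman 0.43 to 0.52 over 28 arrays). Bt.28461.1.S1_a_at and Bt.28461.2.S1_a_at correlated with each other at 0.46, and each of them had a negative correlation with each of the former, down to -0.47. The signs were the same without the 2 arrays and for deviations from the group means, where the lowest correlation was -0.43. These values describe the same 28 libraries and are not independent of each other.

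**Figure D3:**
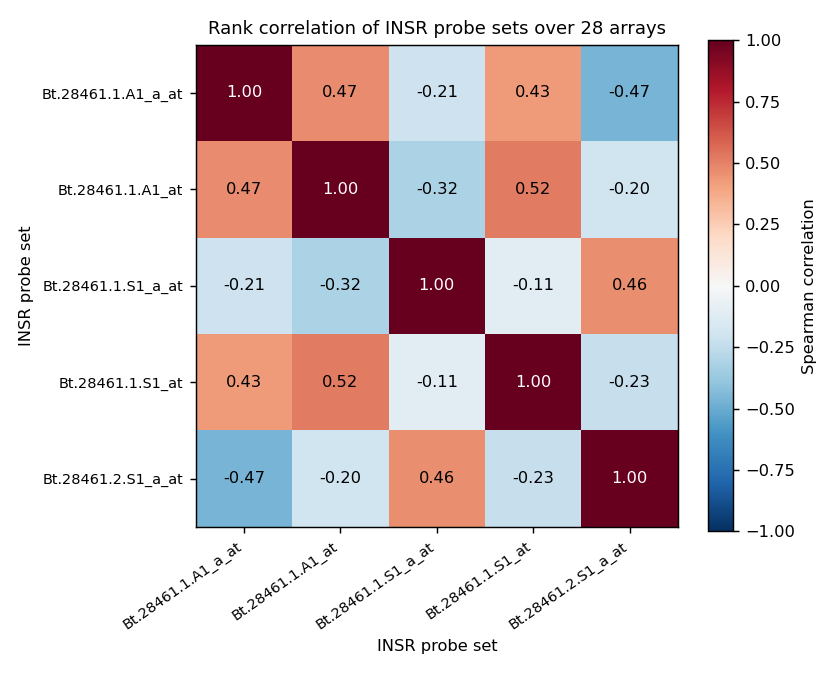
Spearman correlation (colour and printed value) of the log2 signals of each pair of INSR probe sets (both axes) over the 28 arrays. The 3 probe sets with lower means in E2T correlate positively with each other, and the 6 correlations between them and the other 2 probe sets lie between -0.47 and -0.11.

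PIK3R1 encodes the regulatory subunit that ties phosphoinositide 3-kinase to the IRS adaptors. Its only probe set, Bt.7236.1.S1_at, was below the array median on all 28 arrays and was not tested. Its log2 signals were 2.58 to 8.09 in CO (median 4.90), 2.70 to 6.98 in E2T (median 5.53), 2.70 to 5.71 in P4T (median 4.07) and 1.89 to 6.10 in E2P4T (median 3.73), and all groups overlapped.

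AKT1 and AKT2 encode the serine/threonine kinases that pass the signal on, with AKT2 the form best known for hepatic glucose and lipid metabolism. The AKT1 probe set Bt.4843.1.S2_at was above the array median on all 28 arrays and varied little. Its log2 signals were 10.45 to 11.80 in CO (median 11.29), 10.59 to 11.23 in E2T (median 11.07), 10.66 to 11.44 in P4T (median 10.86) and 10.75 to 12.55 in E2P4T (median 11.06). The highest value, 12.55, was that of E2P4T number 5, the library with the kidney markers, and the next in E2P4T was 11.09.

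Every treated group overlapped CO for this probe set. The differences were -0.23 (95% interval -0.69 to 0.24, turning to 0.05 after median centring) in E2T, -0.25 (-0.71 to 0.21) in P4T and -0.01 (-0.47 to 0.45, turning to 0.03 after quantile normalization) in E2P4T. Without the 2 arrays they were -0.23, -0.22 and -0.23. The second AKT1 probe set, Bt.4843.1.S1_at, was below the array median on 26 of 28 arrays and did not track the first (Spearman -0.02 over 28 arrays and 0.12 without the 2 arrays). Its differences from CO were -0.81, 0.71 and -0.25, or -0.81, 0.37 and -0.15 without the 2 arrays, and its contrast of E2T with P4T was -1.52, with an unadjusted p of 0.0371. That contrast had an exact permutation p of 0.0536, and was -1.18 without P4T number 4, the highest of all arrays at 9.18, and -1.08 without E2T number 2, both short of the threshold. This probe set was tested only through P4T number 4 (linear signal 580.7). The next highest signal, 223.7 on E2P4T number 6, was under the 353.2 needed.

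AKT2 had 3 probe sets, and all 3 were lower in E2T than in CO. For the brightest, Bt.5988.1.S1_at, above the array median on all 28 arrays, log2 signals were 9.11 to 10.23 in CO (median 9.93), 8.39 to 9.95 in E2T (median 9.57), 9.49 to 10.45 in P4T (median 9.84) and 9.33 to 9.97 in E2P4T (median 9.69). In E2T 6 of 7 arrays were below the CO mean, 2 of them below every CO array. The E2T difference was -0.48 (95% interval -0.96 to 0.00), with an unadjusted p of 0.0501 that moved to 0.0449 without the 2 arrays, to 0.013 without CO number 3 and to 0.562 after median centring. The differences in P4T and E2P4T were 0.04 (-0.44 to 0.52, or 0.11 without the 2 arrays) and -0.22 (-0.70 to 0.26).

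The probe set Bt.27965.2.S1_a_at had the largest difference from CO among the members, at low signals. Its log2 signals were 3.79 to 8.25 in CO (median 5.02), 2.35 to 5.25 in E2T (median 3.95), 1.63 to 6.74 in P4T (median 5.13) and 1.68 to 8.90 in E2P4T (median 5.91). Of the CO arrays 3 were at 8.01 to 8.25 and 4 at or under 5.02, and no E2T array was as high as the former. The E2T difference was -2.44 ± 1.01, with an unadjusted p of 0.0222, a limma adjusted p of 0.873 and an exact permutation p of 0.0175, and it missed the threshold without CO number 2 (-2.13), number 3 (-2.12) or number 7 (-2.09). In linear terms the medians were 32.4 in CO and 15.5 in E2T, below the array median on 27 of 28 arrays. The highest of all 28 arrays was again E2P4T number 5, and without the 2 arrays the E2P4T difference went from -1.07 to -1.70, with an unadjusted p of 0.0902. Only the linear signal on E2P4T number 5 (476.2) reached the 353.2 needed to be tested, as the next highest was 304.2, on CO number 7. The probe set was thus tested, and counted among the E2T calls, only through that array.

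The third AKT2 probe set, Bt.6403.1.A1_at, ranged from 7.60 to 9.41 in CO (median 8.47) and had medians of 8.11 for E2T, 7.98 for P4T and 8.04 for E2P4T. In each treatment 6 of 7 arrays were below the CO mean, and the array above it in E2P4T was number 5, at 9.98 the highest of all. The differences were -0.53 (95% interval -1.34 to 0.28), -0.47 (-1.28 to 0.34) and -0.23 (-1.04 to 0.58), and without the 2 arrays -0.53, -0.68 and -0.52. Averaged over its 3 probe sets, AKT2 was -1.15 ± 0.41 in E2T (log2, SE; unadjusted p of 0.0088), whereas its brightest probe set gave -0.48. That mean includes the -2.44 of Bt.27965.2.S1_a_at, a probe set of low signal that was tested only through E2P4T number 5. Ranks of the 3 probe sets were only loosely related over the 28 arrays (Spearman -0.09 to 0.18, or 0.04 to 0.25 without the 2 arrays).

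RPTOR, the scaffold that presents substrates to mTORC1, had 1 probe set, Bt.24939.1.S1_at, below the array median on 1 of 28 arrays. Its log2 signals were 8.10 to 9.19 in CO (median 8.68), 7.47 to 8.81 in E2T (median 8.50), 8.20 to 8.83 in P4T (median 8.50) and 8.06 to 9.31 in E2P4T (median 8.50). In each treatment 6 of 7 arrays were below the CO mean, and in E2T 3 were below every CO array. The differences were -0.46 (95% interval -0.97 to 0.06), -0.23 (-0.74 to 0.28) and -0.20 (-0.71 to 0.31), and without the 2 arrays -0.46, -0.29 and -0.34. None passed the unadjusted threshold, and the E2T difference passed it without CO number 1 (-0.56, unadjusted p of 0.039) or E2T number 4 (-0.56, unadjusted p of 0.0412). The E2T difference was -0.31 after quantile normalization (unadjusted p of 0.247) and -0.19 after median centring (0.505).

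DEPTOR, the inhibitory subunit, was lower than CO in most arrays of every treatment. The log2 signals of its probe set, Bt.28713.1.S1_at, were 7.97 to 9.37 in CO (median 8.60), 4.50 to 8.68 in E2T (median 7.66), 7.71 to 9.21 in P4T (median 7.93) and 7.15 to 8.86 in E2P4T (median 7.68). Of each 7 arrays, 6 of E2T, 4 of P4T and 5 of E2P4T lay below the lowest CO array. The array furthest from its group in P4T was number 4, at 9.21.

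The difference of DEPTOR from CO was -1.36 ± 0.43 in E2T, a 2.57-fold lower geometric mean, with an unadjusted p of 0.00355, a limma adjusted p of 0.873 and an exact permutation p of 0.0087. It passed the unadjusted threshold in all 28 fits that left out 1 array, at -1.61 to -0.92, and after quantile normalization (-1.15) and median centring (-1.09). In P4T the difference was -0.43 (95% interval -1.31 to 0.45), or -0.61 without the 2 arrays. In E2P4T it was -0.80 (-1.68 to 0.08), or -0.74 without the 2 arrays, with an unadjusted p of 0.0732 that went to 0.0326 without E2P4T number 2 (-0.99) and to 0.0236 without E2T number 7. The array furthest from the E2T mean was that number 7, at 4.50, and without it the E2T difference was -0.92. The F test p of 0.0248 rose above the threshold without CO number 3 (0.0535), E2T number 4 (0.0512) or E2T number 7 (0.0508), after quantile normalization (0.0513) and after median centring (0.0554).

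**Figure D4:**
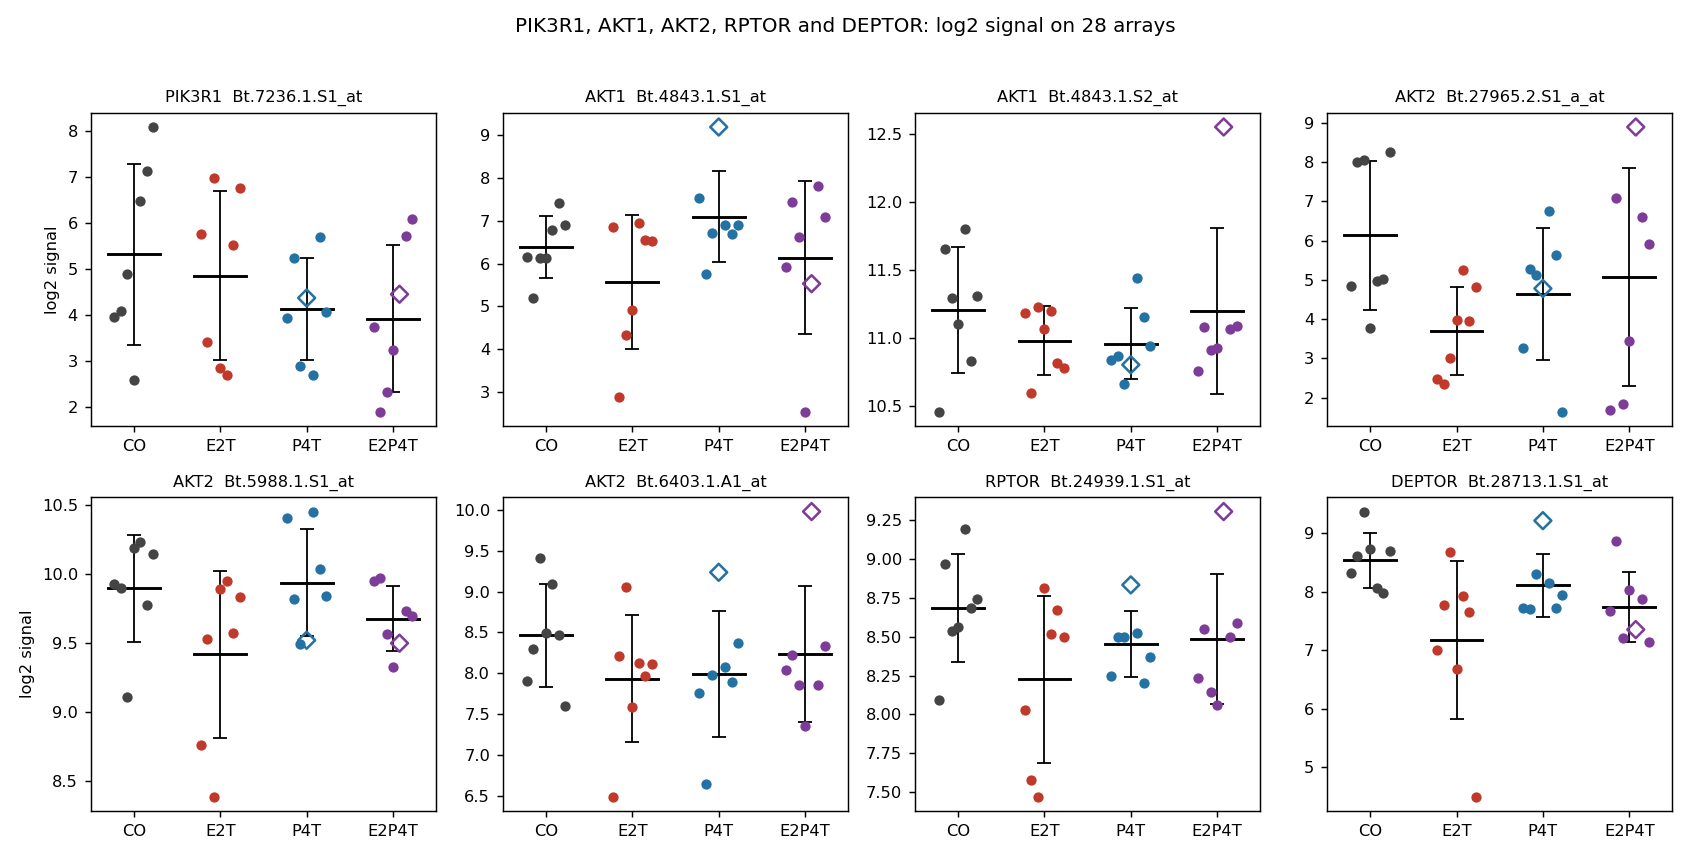
The log2 signal (y axis) of the probe sets of PIK3R1, AKT1, AKT2, RPTOR and DEPTOR on each of the 28 arrays by group (x axis), with the group mean (line) and SD (bar), where open diamonds are P4T number 4 and E2P4T number 5. DEPTOR has 6 of 7 E2T arrays under all CO arrays, and E2P4T number 5 is the highest array for AKT1 Bt.4843.1.S2_at, for 2 AKT2 probe sets and for RPTOR.

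The library with the kidney markers ranked first of 28 in 4 of the 13 probe sets, AKT1 Bt.4843.1.S2_at (12.55), AKT2 Bt.27965.2.S1_a_at (8.90), AKT2 Bt.6403.1.A1_at (9.98) and RPTOR (9.31), and 23rd for DEPTOR (7.35). P4T number 4 ranked first for AKT1 Bt.4843.1.S1_at and second for DEPTOR and for 2 INSR probe sets. The part of tissue content and of the hybridisation controls in these values was not tested.

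Between the hormone treatments few members differed. In E2P4T against E2T and in E2P4T against P4T 0 of the 11 probe sets passed the unadjusted threshold (2.03% and 1.95% of all tested). In E2T against P4T 3 passed (1.43% of all tested): AKT1 Bt.4843.1.S1_at (-1.52), AKT2 Bt.5988.1.S1_at (-0.52) and DEPTOR (-0.93), all lower in E2T. The exact permutation tests gave p-values of 0.0536, 0.0833 and 0.0921 for them, and without the 2 arrays only AKT2 Bt.5988.1.S1_at passed (-0.59, unadjusted p of 0.0192). That AKT2 contrast was -0.37 after median centring, with an unadjusted p of 0.312, and -0.35 without E2T number 3 (0.123). The DEPTOR contrast went to -0.49 without E2T number 7, with an unadjusted p of 0.174. AKT1 Bt.4843.1.S1_at was tested only through an array of P4T, the higher group in this contrast, and that array is among the 2 arrays. Its call, and with it the count of 3, is therefore not independent of the filter.

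The main effect of estradiol, the mean of E2T and E2P4T minus that of CO and P4T, passed the unadjusted threshold for 3 of the 11 probe sets (3.99% of all tested). These were INSR Bt.28461.1.A1_a_at (-1.24 ± 0.40, unadjusted p of 0.00378), DEPTOR (-0.87 ± 0.31, 0.0079) and AKT2 Bt.5988.1.S1_at (-0.37 ± 0.17, 0.0334). Without the 2 arrays they were -1.19, -0.74 and -0.39 and all 3 passed. The INSR probe set was kept only through CO and P4T arrays, the side subtracted here, so its call is not independent of the filter. The AKT2 value missed the threshold after quantile normalization (unadjusted p of 0.0816) and after median centring (0.306), and in 8 of 28 fits that left out 1 array, with the smallest difference, -0.28, without E2T number 3. The main effect of progesterone passed for 0 (1.67% of all tested) and the interaction for 0 (2.98%). The largest interaction was that of AKT2 Bt.27965.2.S1_a_at, 2.87 ± 1.43, with an unadjusted p of 0.0539, and it passed in 11 of the 28 fits that left out 1 array (2.23 to 3.44).

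The wider pathway was taken from lists by role that hold 121 genes, the members among them. Of these genes 86 were on the array and 82 were tested, with 120 probe sets. In E2T 10 of the 120 probe sets were lower than CO at an unadjusted p under 0.05 (8.33%, against 3.96% of all tested) and 0 higher (against 1.46%). The median difference was -0.15, against -0.10 for all tested probe sets. After quantile normalization 8 were lower and 1 higher, against 2.00% and 2.09% of all tested. After median centring 4 were lower (3.33%, against 1.84% of all tested) and 0 higher (against 3.79%). In P4T 1 was lower (0.83%, against 1.82% of all tested) and 1 higher (0.83%, against 0.946%), with a median of -0.05. In E2P4T 3 were lower (2.50%, against 2.72%) and 2 higher (1.67%, against 2.18%), also with a median of -0.05. With limma's adjusted p, 0 passed in each. The member calls given above are counted again here, as 3 of the 10 in E2T, the higher 1 in P4T and 1 of the 3 lower in E2P4T. Without the 2 arrays the counts were 16 lower and 3 higher in E2T, 10 and 3 in P4T and 9 and 4 in E2P4T, while the counts over all tested probe sets rose as well, to 1342 and 567 in E2T, from 341 and 177 to 1085 and 448 in P4T, and from 509 and 407 to 1218 and 560 in E2P4T. The lower pathway probe sets were then 13.3%, 8.33% and 7.50% of the 120, against 7.18%, 5.80% and 6.51% of all tested. The E2T median of the lists was 0.12 after median centring, where that of all probe sets was 0.17, and the P4T and E2P4T medians were 0.06 and 0.01.

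Ranked by their count in E2T, the lists were headed by the subunits and assembly factors of the mTOR complexes, so that this list was picked by the count itself. Of its 8 probe sets, 4 were lower than CO (3.96% of all tested) and 0 higher (1.46%). They were DEPTOR, PRR5, a subunit of mTORC2 (-0.72 ± 0.30), MLST8, which binds the kinase domain in both complexes (-0.50 ± 0.18), and TTI1, a co-chaperone for assembly of the complexes (-0.56 ± 0.27). MLST8 was below the CO mean in all 7 E2T and all 7 E2P4T arrays, and was -0.28 in P4T and -0.42 in E2P4T, the latter with an unadjusted p of 0.0291 that went to 0.202 after median centring. PRR5 was -0.75 in P4T, with an unadjusted p of 0.0181 and all 7 arrays below the CO mean, and -0.40 in E2P4T, or -0.63 without the 2 arrays with an unadjusted p of 0.0262. After quantile normalization the E2T count was 3 of 8 (2.00% lower of all tested), where TTI1 missed the threshold. After median centring it was 1 of 8 (DEPTOR, against 1.84% lower of all tested), while the median of the list kept its sign (-0.48, -0.39 and -0.21).

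Of the receptor and adaptor list, 6 probe sets were of genes other than INSR, and none of them passed in a treatment. The adaptor SH2B1 was at -0.49 in E2T, with all 7 arrays below the CO mean and an unadjusted p of 0.075 that went to 0.031 without the 2 arrays. Neither of these is in E2T or CO, so the difference itself did not change. It was -0.38 after quantile normalization (unadjusted p of 0.248) and -0.22 after median centring (0.476). The docking protein GAB1 was at 0.01 and -0.55 in E2T in its probe sets, the adaptor SHC1 at 0.04 and -0.04 and the adaptor GRB2 at -0.16. The inhibitors that act at the receptor had 0 of 13 probe sets past the threshold in E2T (3.96% lower and 1.46% higher of all tested) and in P4T (1.82% and 0.946%). When the 2 arrays were left out, 1 was lower in E2T (AHSG, -0.58), against 7.18% of all tested. In P4T 2 were then lower (GRB10, -1.56, and TRIB3, -0.50), against 5.80%. In E2P4T 1 was lower (2.72% of all tested), 1 of the 7 of AHSG, the liver glycoprotein fetuin-A (-1.29, unadjusted p of 0.0337). This difference was -0.45 without the 2 arrays and missed the threshold after quantile normalization (0.0529) and median centring (0.107). AHSG is also a hepatocyte marker, and on E2P4T number 5 its brightest probe set was at 10.15 against 15.65 to 16.58 on the other arrays. PHLPP2, a phosphatase of AKT, was lower in E2T (-2.51 ± 0.98, unadjusted p of 0.0156) at a mean log2 signal of 4.62.

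Among mTORC1 regulators and targets, DDIT4L, an inhibitor of mTORC1 signaling, was higher in E2P4T (0.70, unadjusted p of 0.05), which went to 0.33 without the 2 arrays. LPIN1, a phosphatidate phosphatase controlled by mTORC1, was lower in E2T (-1.83 ± 0.83, unadjusted p of 0.0342), and missed the threshold after quantile normalization (0.0749) and median centring (0.0617). RPS6KB1, the S6 kinase, was higher in E2P4T in 1 probe set (2.21 ± 0.77, unadjusted p of 0.0073, and 2.15 without the 2 arrays) and at -0.35 in the other (-0.54 without the 2 arrays). SESN2, a leucine sensor upstream of mTORC1 (-0.72 ± 0.29 in E2T), and SREBF1, the lipogenic transcription factor induced by insulin (-0.60 ± 0.23 in E2T), were each lower in all 7 E2T arrays than the CO mean in 1 of 3 probe sets, and both missed the threshold after median centring (unadjusted p of 0.0658 and 0.245).

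The list of genes that insulin controls in liver holds genes that it induces and genes that it represses, so that these are given apart. Of the lipogenic genes that it induces, SREBF1 was at -0.60, -0.23 and -0.66 in E2T in its 3 probe sets, the first of which passed. FASN, the fatty acid synthase, was at -0.64 in E2T (unadjusted p of 0.0707), ACACA, the acetyl-CoA carboxylase, at -0.97 and -0.73, and SCD, the stearoyl-CoA desaturase, at 0.16. Of the genes that it represses, IGFBP1 was at 0.94, 1.16 and 0.62 in the order E2T, P4T and E2P4T, with all 7 E2T and all 7 P4T arrays above the CO mean and unadjusted p-values of 0.167, 0.09 and 0.355, and the last value was 0.94 without the 2 arrays. PCK1, the gluconeogenic enzyme, was at 0.46, 0.27 and 0.01 in the same order, or 0.46, 0.34 and 0.20 without the 2 arrays, where E2T passed (unadjusted p of 0.0221). Over the whole list of 20 probe sets of 10 genes, 1 was lower in E2T (3.96% of all tested) and 0 were higher (1.46%). In P4T 0 passed (1.82% lower and 0.946% higher of all tested), and 0 in E2P4T (2.72% and 2.18%). With the 2 arrays left out, 2 were lower (7.18% of all tested) and 1 higher (3.03%) in E2T. Then 1 was lower in P4T (5.80%), and 1 was lower (6.51%) and 1 higher (2.99%) in E2P4T. In the lists, TTI1, SH2B1, GAB1, SHC1, GRB2, GRB10, TRIB3, SESN2, SREBF1, FASN, ACACA, SCD, IGFBP1 and PCK1 were named after their values were seen.

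**Figure D5:**
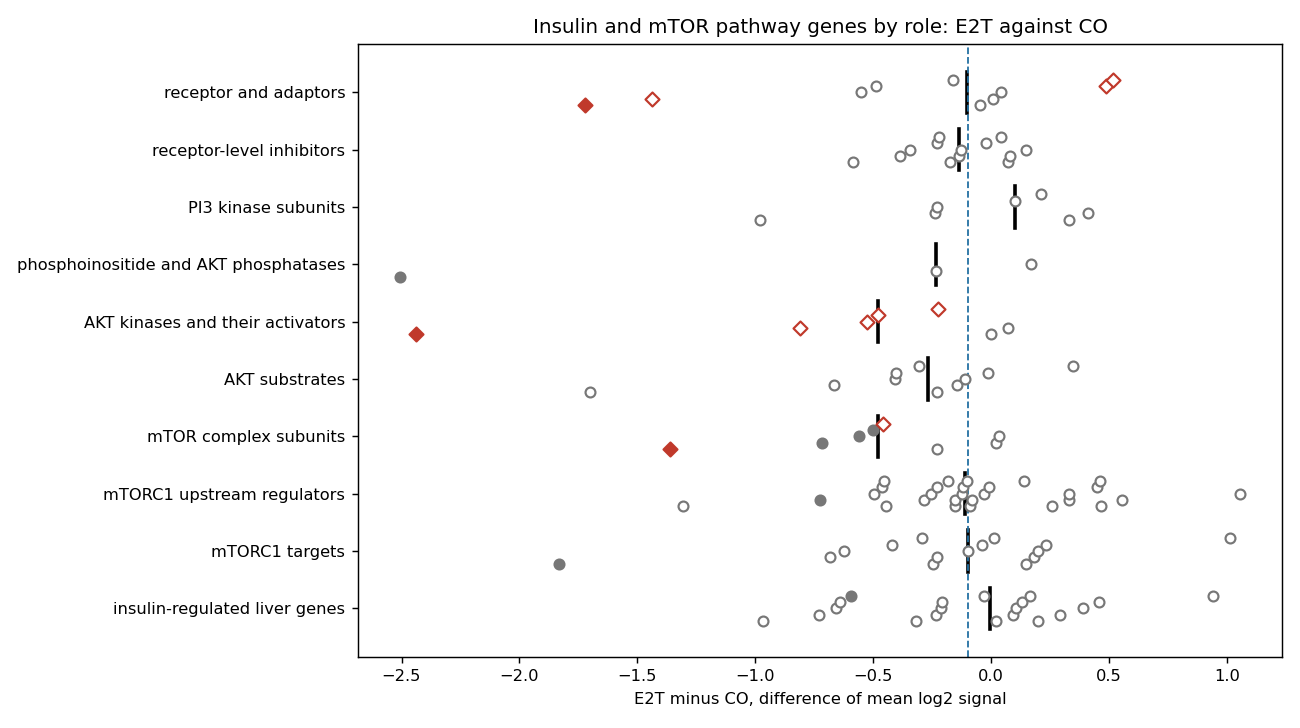
Each symbol is the E2T minus CO difference of the mean log2 signal (x axis) of 1 tested probe set, by role (y axis), where red diamonds are members, filled symbols have an unadjusted p under 0.05, black bars are medians of a role and the dashed line is the median of all tested probe sets, -0.10. The mTOR complex subunits hold 4 filled symbols, each at -0.50 or lower, and the median of all 8 symbols is -0.48. Of all tested probe sets 3.96% were lower at this p.

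Genes whose signals ranked the 28 arrays most like the brightest probe set of each member were found by Spearman correlation, as a description over arrays that share their libraries. For DEPTOR these were UBQLN4 (0.90), EXOSC2 (0.80) and AKR1C4 (0.80), and for AKT1 they were MOSPD3 (0.85), SARS2 (0.85) and BCL7B (0.81). NAP1L1 led for INSR (0.75), followed by ADAMTS1 (0.67) and RBM47 (0.67), UPB1 for AKT2 (0.69), PRKAR2B for RPTOR (0.71) and ZNF592 for PIK3R1 (0.66). Without the 2 arrays UBQLN4, MOSPD3, NAP1L1 and UPB1 still ranked first, at 0.89, 0.87, 0.74 and 0.68, while RPTOR was led by GPRC5B (0.70) and PIK3R1 by SCFD2 (0.70).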

How the data were processed

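Liver mRNA was isolated with oligo(dT) beads, and biotin-labelled cRNA was hybridized to the Affymetrix Bovine GeneChip. The authors captured the arrays with GCOS 1.4 and computed signals with MAS 5.0. The deposited values are linear signal intensities without detection calls, with a trimmed mean (2% off each end) of 1000.2 to 1000.4 per array, so that an array with more bright controls has a different median. Samples were assigned from their titles, and none was left out. Values were set to log2, and the 18703 probe sets (of 24016 other than 112 controls) of highest maximum signal, at least 353.2, were kept, the number the study gives as present. Such a filter can keep a probe set through 1 array, or through the group where it is high. limma 3.58.1 in R 4.3.3 (1 coefficient per group, eBayes with trend) replaced the study's mixed model, since cow and period are not in the labels. It was tested on simulated data. P-values were adjusted by Benjamini-Hochberg over all tested probe sets, and they measure the spread between arrays. Contrasts past an unadjusted 0.05 were also tested by exact 2-sided permutation, which is unadjusted and takes arrays as exchangeable although cows were reused. The platform annotation gave 1 symbol for 13292 probe sets and several for 86, and no symbol changed through gene IDs. Named were all members, per contrast at most 4 highest and 4 lowest pathway genes past an unadjusted 0.05, the 3 most similar genes, and marker genes of arrays standing apart. Genes named outside this rule are listed as such. The members, lists and tests were chosen with earlier results of these data known. Probe sequences were not used here.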

Additional observations from a re-analysis of the deposited data

Results flagged for a closer look

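In 11 of 52 groups of 7 arrays (13 probe sets in 4 groups) 1 array lay far from the others, by Dixon's criterion, which chance alone meets in about 1 in 20 groups. Of the 11, 4 were on the 2 arrays of high hybridisation controls, P4T number 4 and E2P4T number 5, and the part of these controls was not tested. On E2P4T number 5 the log2 signal was 12.55 for AKT1 Bt.4843.1.S2_at (next 11.09), 9.98 for AKT2 Bt.6403.1.A1_at (next 8.34) and 9.31 for RPTOR Bt.24939.1.S1_at (next 8.59). On P4T number 4 DEPTOR Bt.28713.1.S1_at was at 9.21 (next 8.29). On CO number 3 AKT2 Bt.5988.1.S1_at was at 9.11 (next 9.77).

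The others concern INSR and the dimmer AKT1 probe set. INSR Bt.28461.1.A1_a_at was at 4.00 on E2T number 1 (next 6.41) and at 3.45 on E2P4T number 3 (next 6.12). INSR Bt.28461.1.A1_at was at 6.62 on E2T number 3 (next 3.89), INSR Bt.28461.1.S1_a_at at 5.48 on E2T number 3 (next 6.54) and INSR Bt.28461.2.S1_a_at at 4.25 on E2P4T number 2 (next 8.06). AKT1 Bt.4843.1.S1_at was at 2.54 on E2P4T number 4 (next 5.53).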

How the results depend on the processing

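The 99 contrasts of the member probe sets (11 of them with an unadjusted p under 0.05) reversed under none of the alternatives where a call was made. The number of members with an adjusted p under 0.05 was 0 under every alternative run. At an unadjusted p, the count of 2 in the F test became 1 after quantile normalization, after median centring and with only probe sets of higher signal tested, and ranged from 1 to 2 with 1 array left out. For E2T the count of 3 became 5 without moderated variances (2 to 5 with 1 array left out). For P4T the count of 1 became 0 with that restriction, without moderated variances, with array weights and with 4 arrays left out (0 to 1). For E2P4T the count of 1 became 0 with that restriction and 2 with log2 of the signal plus 50 or with only the groups compared (1 to 3). The count in E2P4T against E2T became 1 with 4 arrays left out, and that in E2T against P4T fell from 3 to 0 after quantile normalization or median centring and to 1 with only the groups compared or with the 2 arrays left out (1 to 3). The interaction went from 0 to 1 without a filter, with log2 of the signal plus 50, array weights, 4 arrays left out, and a term for array numbers 1 to 4 against 5 to 7 (0 to 2); the main effect of estradiol gave 2 to 4 and that of progesterone 0 to 1 with 1 array left out. Array numbers were not taken to pair the samples, since not every same-numbered pair correlated above 0.1: 14 of 42 same-numbered pairs did (-0.21 to 0.32). As a hint of pairing in the data, 11 of 28 arrays correlated best with an array of their own number, although most other arrays carry another number. Number 6 alone had all pairs above 0.1 (0.12 to 0.32), and each other number had a pair with a negative correlation. Whether the numbers mark cows was not tested. With the replicate block, fixed or random, the interaction count was 1 (AKT2 Bt.27965.2.S1_a_at, tested only through E2P4T number 5, 2.87, limma unadjusted p of 0.046 when fixed), AKT2 Bt.5988.1.S1_at passed in E2T (unadjusted p of 0.0316), and no other contrast changed. The 2 arrays, the 4 arrays (with CO number 3 and E2T number 3) and the term for array numbers were chosen after seeing the data, and the cause of these changes was not tested. Low signal limits INSR, PIK3R1 and the dim AKT probe sets.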
